A study of Mus musculus with 18 samples.

Results

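Metaplastic breast carcinomas are tumors in which part of the malignant epithelium takes on spindle, sarcomatoid or other nonglandular forms, and most of them are triple negative, meaning that they lack the estrogen receptor, the progesterone receptor and HER2. Epithelial cells that lose their junctions and keratins and gain vimentin and matrix genes are said to undergo epithelial-mesenchymal transition, a program driven by factors such as Zeb1, Snai1 and Twist1. Interferons act on tumor and stromal cells and raise antiviral genes, guanylate-binding proteins and the machinery that loads peptides on MHC class I for display to T cells.

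The comparison here is of 7 metaplastic and 2 nonmetaplastic triple-negative mammary tumors, 9 of the 18 mouse tumors of the series. Tumors were placed by the histology given in the study's table of tumors, not by any measured value. The metaplastic tumors were JM1233, RM0014 and JM1133 of genotype MaP R245W/- and JM663-T1, JM663-T2, JM833-T1 and JM833-T2 of genotype MaP -/-. The nonmetaplastic tumors were JM1564, an adenocarcinoma, and JM1126, a sarcoma, both MaP R245W/-. Of the metaplastic tumors, 5 were sarcomatoid carcinomas and the pair from mouse JM833 were poorly differentiated carcinomas.

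In all these mice Trp53 was altered by an adenovirus carrying Cre recombinase that was injected into the mammary gland of young adult females, which were F1 hybrids of BALB/c and C57BL/6J. In MaP R245W/- tumors the wild-type Trp53 allele is switched to one that encodes a missense p53, beside a null allele, and in MaP -/- tumors both copies are lost. Recombination was directed to ductal epithelial cells, and each piece of tumor also held host cells without it. JM1233, RM0014 and JM1564 also carried Rosa26LSL-TdTomato/+, a fluorescent reporter switched on by Cre. The 9 tumors came from 7 mice, since JM663 and JM833 gave 2 tumors each, and tumors of 1 mouse share their host. A frozen portion of each tumor was used, collected once the mouse had a mammary tumor burden. Both nonmetaplastic tumors were MaP R245W/-, so in the 9 tumors histology and genotype overlap, and the 3 metaplastic MaP R245W/- tumors were also compared with the 2 nonmetaplastic tumors alone. With 1 adenocarcinoma and 1 sarcoma, the nonmetaplastic group holds a single tumor of each kind. JM836-T1 and JM779-T1 were left out because the sample labels and the table of tumors differ on which tumor of the mouse was sequenced. The 7 MaP R172H/- tumors were read on another instrument and were not in the fits.

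The 9 libraries held 24736337 to 37365062 counts, with 33581143 and 36998374 counts in the nonmetaplastic tumors. The Spearman correlation over the genes tested was 0.8754 between JM1564 and JM1126, lower than in every pair of metaplastic tumors, which ran from 0.8969 to 0.9631. Pairs of a metaplastic and a nonmetaplastic tumor ran from 0.8789 to 0.958. The highest of these was JM1564 with RM0014, so the nonmetaplastic tumors were less like each other than either was like some metaplastic tumors. The levels of Esr1 (1.33 CPM in JM1564 and 15.5 CPM in JM1126, against 8.3 to 43.8 CPM in the metaplastic tumors), Pgr (0.247 and 0.584 CPM against 0.478 to 10.8 CPM) and Erbb2 (101 and 49.0 CPM against 25.7 to 129 CPM) overlapped between the groups. Trp53 was detected in every tumor, at 9.24 to 58.8 CPM in the metaplastic tumors and at 27.1 and 28.0 CPM in JM1564 and JM1126. CPM here are counts scaled to TMM-adjusted library sizes.

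No gene was called different between metaplastic and nonmetaplastic tumors at an edgeR FDR below 0.05 with an absolute log2 fold change of at least 1. This held for the 24586 genes tested in 9 tumors (0% called) and for the 21900 genes tested inside MaP R245W/- (0% called), and it held also without the fold change threshold. The lowest FDR was 0.147 in the 9 tumors and 0.99997 inside MaP R245W/-. At an unadjusted p below 0.05 there were 1430 genes in the 9 tumors, 648 higher and 782 lower in the metaplastic tumors, and 538 inside MaP R245W/-. The Wald test of DESeq2 called 101 genes higher and 113 lower in the 9 tumors, and 34 higher and 47 lower inside MaP R245W/-. The results below are therefore differences in level, with their errors, that did not pass edgeR's test across all genes. For a single gene an exact two-sided rank-sum test over 7 and 2 tumors cannot give a p below 0.0556, and over 3 and 2 tumors none below 0.2. Genes described below that the naming rule did not choose, such as Psmb8, Tap2, B2m, Cldn4, Trp63 and Gm33318, were chosen after their values were seen.

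As a description, genes were counted whose groups did not overlap, with an absolute log2 fold change of at least 1. In 502 genes (2.04% of those tested) the lowest metaplastic tumor lay above both nonmetaplastic tumors, and in 156 genes (0.635%) the highest metaplastic tumor lay below both. Inside MaP R245W/- these were 608 genes (2.78%) and 376 genes (1.72%). The median log2 fold change of all genes, coded as metaplastic minus nonmetaplastic, was 0.03 in the 9 tumors and -0.02 inside MaP R245W/-.

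Interferon response genes were higher in the metaplastic tumors as a list. All 22 listed genes had a log2 fold change above 0 in both comparisons, against 52.0% and 48.3% of all genes tested. Their median log2 fold change was 2.11 in the 9 tumors and 2.001 inside MaP R245W/-. None was called, and 13 reached an unadjusted edgeR p below 0.05 in the 9 tumors, as did 1430 of all 24586 genes tested. In the 9 tumors 5 were higher without overlap between the groups, among them Gbp2, Gbp3, Cxcl9 and Oas2, against 2.04% of all genes tested. The summed level of the list was 844 to 3914 CPM in the metaplastic tumors (median 1850 CPM), 693 CPM in JM1564 and 406 CPM in JM1126. The lowest metaplastic tumor was JM1233, and without it 18 of the 22 genes did not overlap. Without JM1564 these were 12.

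The 250 bases before the start of Gbp2 and Gbp3 are shown because these neighbours on chromosome 3 lead the list and hold the motif GAAANNGAAA, the core of the interferon-stimulated response element. The sequences are from RefSeq (GRCm38.p6) and lie at chr3:142620413-142620662 and chr3:142559794-142560043, on the plus strand. Capitals mark the motif, here on the opposite strand, which 2.98% of 32851 promoters in the table hold on either strand.
Gbp2: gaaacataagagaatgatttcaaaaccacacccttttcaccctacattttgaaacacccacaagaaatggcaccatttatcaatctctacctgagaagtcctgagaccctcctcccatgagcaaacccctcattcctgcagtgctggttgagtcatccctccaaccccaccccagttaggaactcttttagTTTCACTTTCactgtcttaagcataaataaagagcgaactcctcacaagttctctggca
Gbp3: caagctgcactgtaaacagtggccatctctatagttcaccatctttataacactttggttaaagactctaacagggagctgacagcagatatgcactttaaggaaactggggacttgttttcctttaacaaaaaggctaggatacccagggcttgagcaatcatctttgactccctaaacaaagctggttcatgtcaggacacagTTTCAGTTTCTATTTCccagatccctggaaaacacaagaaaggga
The match in Gbp2 begins 59 bases before the start, and Gbp3 holds 2 overlapping matches, the first beginning 45 bases before it. The table held promoters of 16 of the 22 listed genes, too few to describe the whole list. Of these 16 genes 10 held the motif, and counted by gene 3.46% of all genes in the table did.

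Gbp2, a guanylate-binding protein that acts against intracellular pathogens, lies in GRCm39 on chromosome 3 from 142326349 to 142343779. It was at 238 CPM in JM1233, 154 CPM in RM0014 and 270 CPM in JM1133. In the MaP -/- metaplastic tumors it was at 346 and 385 CPM (JM663) and at 232 and 50.6 CPM (JM833). JM1564 held 18.02 CPM and JM1126 held 22.4 CPM, so every metaplastic tumor was higher, the least so being JM833-T2. The log2 fold change was 3.57 (SE 0.73, edgeR FDR 0.63) in the 9 tumors and 3.46 (SE 0.42) inside MaP R245W/-.

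Gbp3 was at 75.3 to 395 CPM in the metaplastic tumors (median 184 CPM), against 41.2 CPM in JM1564 and 23.1 CPM in JM1126. Gbp4, of the same family on chromosome 5, was at 27.4 to 70.3 CPM (median 44.8 CPM) against 8.71 and 16.7 CPM, a log2 fold change of 1.90 (SE 0.45). These families hold close copies, and how reads were shared between them depends on the authors' estimation of counts. Cxcl9, a chemokine that draws activated T cells, was at 7.66 to 28.9 CPM (median 16.0 CPM) in the metaplastic tumors, against 4.39 CPM and 1.46 CPM. Oas2, an antiviral oligoadenylate synthetase, was at 11.3 to 121 CPM (median 52.7 CPM), against 5.19 CPM and 9.67 CPM.

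Other interferon genes overlapped through JM1233. Ifit1, which binds viral RNA, was at 12.7 CPM in JM1233, below JM1564 at 45.2 CPM and JM1126 at 13.1 CPM, while RM0014 held 85.7 CPM and JM1133 held 352 CPM. Irf7, a regulator of interferon production, was at 25.2 CPM in JM1233 against 111 CPM in JM1564 and 39.7 CPM in JM1126, and at 480 CPM in JM1133. Without JM1133 the median of the list inside MaP R245W/- was 0.72, with 21 of 22 genes above 0. Outside the list, Mndal, an interferon-inducible nuclear protein, was at 43.7 to 179 CPM (median 95.0 CPM) in the metaplastic tumors against 15.0 and 18.3 CPM, a log2 fold change of 2.56 (SE 0.62). F830016B08Rik, which belongs to an interferon-inducible GTPase family, was at 6.56 to 43.4 CPM against 2.32 and 2.21 CPM, a log2 fold change of 3.24 (SE 0.77).

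Antigen presentation divided by class. Of the 16 listed genes, the 9 of MHC class I and its peptide loading all had log2 fold changes above 0, with a median of 1.36 in the 9 tumors and 1.37 inside MaP R245W/-. In the 9 tumors 6 of them were higher without overlap (Nlrc5, Psmb9, Psmb8, Tap2, B2m and H2-D1), against 2.04% of all genes tested. The 7 genes of MHC class II all had log2 fold changes below 0, with medians of -0.68 and -0.46, and none was without overlap. The summed class I level was 2416 to 6998 CPM in the metaplastic tumors (median 3446 CPM), 1849 CPM in JM1564 and 1521 CPM in JM1126. The summed class II level was 559 to 1931 CPM in the metaplastic tumors, but 405 CPM in JM1564 and 3196 CPM in JM1126, so the nonmetaplastic tumors were the lowest and the highest of the 9.

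Nlrc5, the transactivator of MHC class I genes, lies on chromosome 8 from 95160984 to 95253900. It was at 118 CPM in JM1233, 97.1 CPM in RM0014 and 205 CPM in JM1133, and at 145 to 285 CPM in the 4 MaP -/- tumors. JM1564 held 29.0 CPM and JM1126 held 19.4 CPM, so the groups were far apart. The log2 fold change was 2.85 (SE 0.47, edgeR FDR 0.53) in the 9 tumors and 2.54 (SE 0.49) inside MaP R245W/-.

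The immunoproteasome subunits cut proteins into peptides that fit class I. Psmb9 was at 24.9 to 74.5 CPM in the metaplastic tumors (median 36.6 CPM) against 18.1 and 12.1 CPM, and Psmb8 at 50 to 162 CPM (median 78.4 CPM) against 34.8 and 32.3 CPM. Tap2, which pumps peptides into the endoplasmic reticulum, was at 24.5 to 70.7 CPM against 20.3 CPM in JM1564 and 16.4 CPM in JM1126. B2m, the shared light chain, was at 764 to 2692 CPM (median 1240.3 CPM) against 698 and 483 CPM, a log2 fold change of 1.36 (SE 0.53). H2-D1, a class I heavy chain, was at 661 to 1805 CPM against 485 and 471 CPM. In these genes the lowest metaplastic tumor lay close above the higher nonmetaplastic one, and H2 genes differ between the parental strains and have close copies, which can move counts between them. H2-Aa, a class II chain found on antigen-presenting cells, was at 122 to 443 CPM in the metaplastic tumors, 80.8 CPM in JM1564 and 774 CPM in JM1126.

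**Figure D1:**
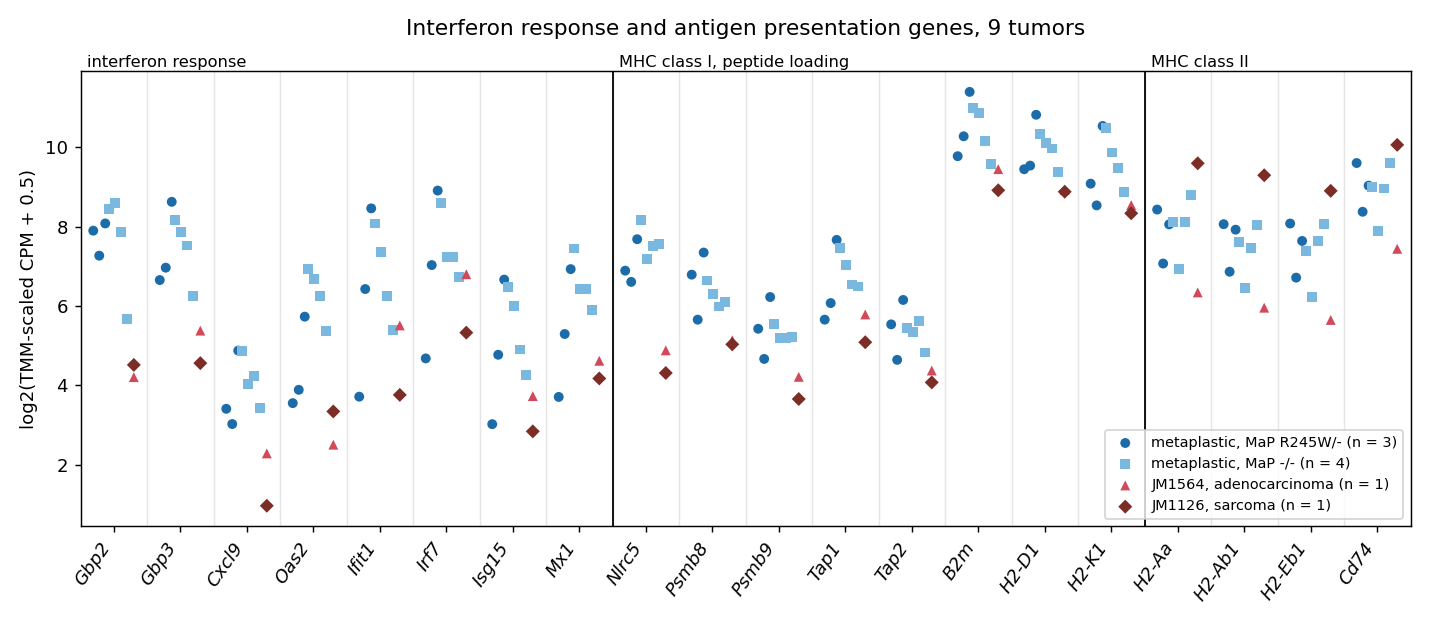
Level of interferon response, MHC class I and MHC class II genes in each of the 9 tumors, as log2(CPM + 0.5), with 1 point per tumor. The triangles and diamonds of JM1564 and JM1126 lie below the metaplastic tumors for Gbp2 and Nlrc5, while for H2-Aa JM1126 lies above all tumors at 774 CPM and JM1564 below them at 80.8 CPM.

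Levels of immune cell markers were set beside these genes. T cell markers (Cd3e, Cd3d, Cd8a) summed to 0.874 to 39.1 CPM in the metaplastic tumors, 1.45 CPM in JM1564 and 4.09 CPM in JM1126. Macrophage markers (Cd68, Adgre1, Csf1r) summed to 219 to 1350 CPM in the metaplastic tumors, 200 CPM in JM1564 and 566 CPM in JM1126. None of these 6 markers was at 0 in any tumor. The part of these cells in the interferon result was not tested, and in bulk tumor RNA fewer cells of a type and less RNA per cell cannot be told apart. Of the T and NK cell list, 16 of 18 genes were above 0 in the 9 tumors (median 1.40) and 12 of 17 inside MaP R245W/- (median 0.64). Gzma, a protease of cytotoxic cells, did not overlap but was low, with 9 to 130 counts in the metaplastic tumors against 4 counts in JM1564 and 3 in JM1126.

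On a scale shared by all 18 tumors, the 7 MaP R172H/- tumors held Gbp2 at 62.5 to 652 CPM and Nlrc5 at 98.3 to 250 CPM. On the same scale JM1564 and JM1126 held Gbp2 at 17.8 and 22.2 CPM and Nlrc5 at 28.8 and 19.3 CPM. The study's table lists the MaP R172H/- tumors as nonmetaplastic adenocarcinomas, so in these genes it was JM1564 and JM1126 that stood low, not every nonmetaplastic tumor of the series. This did not hold for the whole interferon list, which summed to 436 to 5418 CPM in the MaP R172H/- tumors. JM1564 lay inside that range at 686 CPM and JM1126 just below it at 403 CPM. The summed class I level was 3327 to 11291 CPM in the MaP R172H/- tumors, against 1830 CPM in JM1564 and 1509 CPM in JM1126. Platform, genotype and subtype cannot be told apart in this view. The tumors left out, JM836-T1 and JM779-T1, held Gbp2 at 85.6 and 76.7 CPM and Nlrc5 at 84.2 and 147 CPM.

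Epithelial identity genes, among them keratins, junction proteins and the splicing regulators Esrp1 and Esrp2, were not separated by histology as a group. Of 36 genes, 7 had a log2 fold change above 0 and 29 below in the 9 tumors, with a median of -0.38, and the median inside MaP R245W/- was -0.16. In the 9 tumors 2 did not overlap, both lower (Crb3 and Cldn4), against 0.635% of all genes tested. The summed level was 706 CPM in JM1233 and 2522 to 8782 CPM in the other 6 metaplastic tumors, against 10452 CPM in JM1564 and 5724 CPM in JM1126. The sarcoma JM1126 thus held epithelial genes at a level inside the metaplastic range, and JM1233 was lowest. The direction depended on single tumors: without JM1564 the median in the 9 tumors was 0.48, without JM1126 it was -0.86, and without JM1233 the median inside MaP R245W/- was 0.34.

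Epcam, an epithelial adhesion molecule, was at 34.8 CPM in JM1233, 828.6 CPM in RM0014 and 822 CPM in JM1133, and at 253 to 659 CPM in the MaP -/- tumors, with 623 CPM in JM1564 and 432 CPM in JM1126. Cdh1, the E-cadherin gene, was at 40.3 CPM in JM1233, 350 CPM in RM0014 and 444 CPM in JM1133, against 508 CPM in JM1564 and 337 CPM in JM1126. Krt8 and Krt18, the paired keratins of simple epithelium, were at 215 and 154 CPM in JM1233 and at 1298 and 1422 CPM in JM1126. The defining epithelial markers were thus present in JM1564, labelled an adenocarcinoma, and also in JM1126, labelled a sarcoma.

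A few junction genes did separate the metaplastic tumors from JM1564 and JM1126, all lower in the metaplastic tumors. Cldn1, a tight junction claudin, was at 21.9 to 49.2 CPM (median 30.7 CPM) against 108 CPM in JM1564 and 68.8 CPM in JM1126, a log2 fold change of -1.38 (SE 0.32, edgeR FDR 0.63). Cgnl1, a cytoplasmic tight junction protein, was at 92.6 to 307 CPM (median 258 CPM) against 784 and 379 CPM, a log2 fold change of -1.39 (SE 0.45). Crb3, a polarity protein of the apical membrane, was at 1.02 to 9.44 CPM (median 4.28 CPM) against 21.2 and 11.1 CPM, a log2 fold change of -1.84 (SE 0.60). Cldn4 was at 3.31 to 173 CPM (median 121 CPM) against 226 and 434 CPM, and Perp, a desmosomal protein and p53 target, at 23.6 to 73.9 CPM against 92.9 and 158 CPM. In the claudin and tight junction list 3 of 21 genes did not overlap, all lower, against 0.635% of all genes tested. The median of this list was -0.35 (0.16 without JM1564), while Tjp1 and Ocln overlapped between the groups. On the scale shared with the nonmetaplastic MaP R172H/- tumors, those tumors held Cldn1 at 6.83 to 84.7 CPM, against 107 CPM in JM1564 and 68.2 CPM in JM1126. They held Cgnl1 at 119 to 607 CPM against 776 and 376 CPM, and Crb3 at 1.21 to 29.3 CPM against 21.02 and 11.01 CPM. JM1126 thus lay inside their range in these genes, as JM1564 did for Crb3. Whether histology sets these levels was not tested.

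The promoter of Crb3 is shown because it led the epithelial list and held the E-box CACCTG, a sequence bound by Zeb and Snail factors, which appears on either strand in 17.2% of the promoters in the table. It lies at chr17:57061951-57062200 (GRCm38.p6, RefSeq, plus strand), and capitals mark 3 matches.
Crb3: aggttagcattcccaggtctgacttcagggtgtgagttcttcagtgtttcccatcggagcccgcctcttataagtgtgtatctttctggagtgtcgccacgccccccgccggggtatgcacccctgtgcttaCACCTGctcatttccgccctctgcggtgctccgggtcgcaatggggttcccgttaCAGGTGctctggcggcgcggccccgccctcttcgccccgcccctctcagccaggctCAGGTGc
The matches begin 118, 63 and 7 bases before the start. Promoters were in the table for 24 of the 36 listed genes, so the whole list is not described. Of these 24 genes 17 held the E-box, and counted by gene 19.4% of all genes in the table did.

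Mesenchymal and matrix genes ran along the difference between the nonmetaplastic tumors instead. The mesenchymal structure list summed to 33095 CPM in JM1126, above all 8 other tumors, and to 6028 CPM in JM1564, below all of them, with 6735 to 21562 CPM in the metaplastic tumors. The collagen list summed to 57795 CPM in JM1126, 7862 CPM in JM1564 and 9340 to 25070 CPM in the metaplastic tumors, of which JM1233 was highest. No gene of either list was without overlap in the 9 tumors. Inside MaP R245W/- 2 of 19 collagen genes were higher without overlap, against 2.78% of all genes tested, and no mesenchymal gene was. In the 9 tumors the medians of -0.90 over 26 mesenchymal genes and -1.13 over 19 collagen genes rest on JM1126. Without it they were 1.09 and 0.78.

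Vim, the intermediate filament of mesenchymal cells, was at 314 CPM in JM1564 and 1761 CPM in JM1126, with 279 CPM in JM663-T1 and 2351 CPM in JM1233 as the ends of the metaplastic range. Col1a1, the main chain of type I collagen, was at 7602 CPM in JM1126, 655 CPM in JM1564 and 481 to 2723 CPM in the metaplastic tumors. Fn1, fibronectin, was at 9477 CPM in JM1126, 1806 CPM in JM1564 and 8133 CPM in JM1233. Zeb1, a repressor of epithelial genes, was at 84.0 CPM in JM1126, 18.4 CPM in JM1564 and 20.6 to 203 CPM in the metaplastic tumors, JM1233 being highest. The 13 tested transcription factors of epithelial-mesenchymal transition were centred at 0.03 in the 9 tumors, as all genes were. In the 9 tumors 1 of the 13 was higher without overlap, against 2.04% of all genes tested. Inside MaP R245W/- this was also 1 of 13, against 2.78%.

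JM1126 was also far above the other tumors in a few genes that were chosen after their values were seen. Lama3 and Lamb3, laminin chains that help anchor keratinocytes, were at 2821 CPM and 2292 CPM in JM1126. The highest metaplastic values were 210 CPM for Lama3 and 212 CPM for Lamb3, and JM1564 held 10.7 and 13.3 CPM. Mmp9, a gelatinase, was at 3186 CPM in JM1126, 142 CPM in JM1233 and 4.73 CPM in JM1564. With JM1126 as the only nonmetaplastic tumor, edgeR called 2 genes higher and 87 lower in the metaplastic tumors, and with JM1564 as the only one it called 0 higher and 2 lower. In these fits the spread comes from the metaplastic tumors alone and the lone tumor is assumed to vary like them, so the calls describe that tumor.

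**Figure D2:**
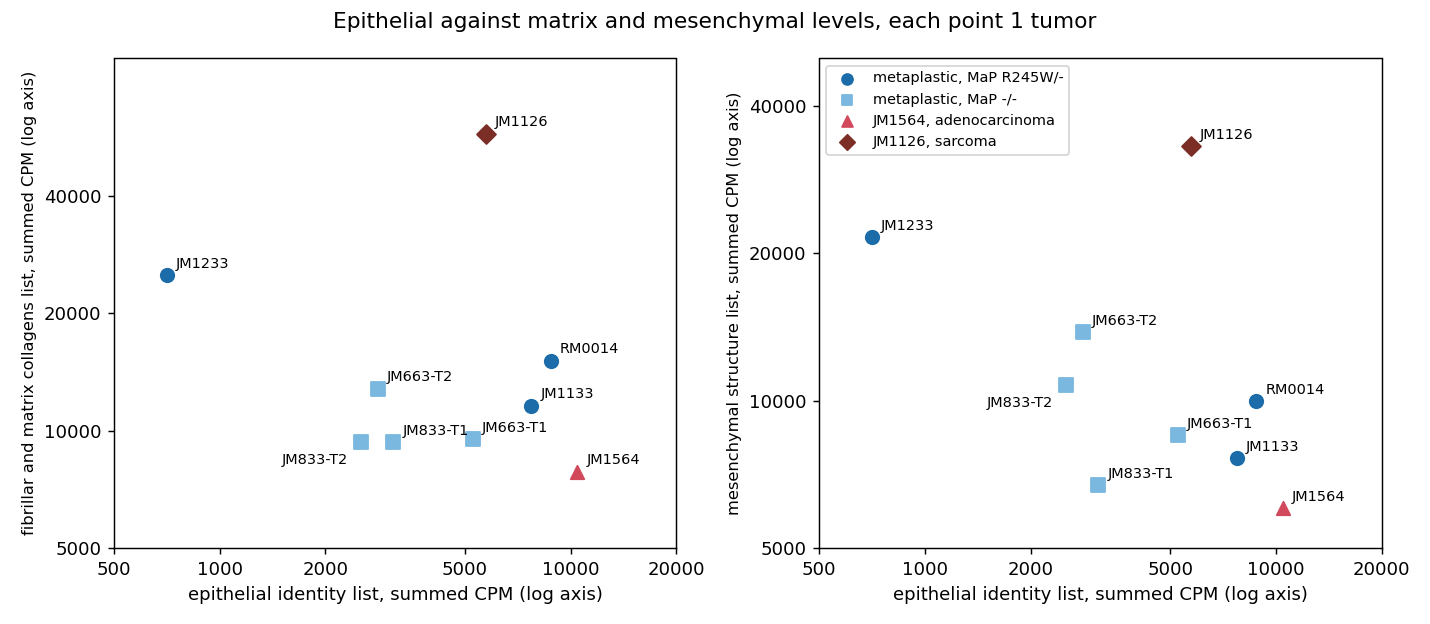
Summed CPM of the epithelial identity list (x axis, log scale) against the collagen list (left) and the mesenchymal structure list (right), with 1 point per tumor. JM1564 sits at the epithelial end with 10452 CPM, JM1233 at the other end with 706 CPM, and JM1126 lies above all tumors in both panels.

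Stromal and host tissues differed between single tumors. Skeletal muscle genes summed to 7706 CPM in JM1233 and 655 CPM in JM1133, with 36.6 to 210 CPM in the other 7 tumors. Acta1, skeletal muscle actin, was at 476 CPM in JM1233, 2.29 CPM in JM1564 and 17.9 CPM in JM1126. Adipocyte genes summed to 7737 CPM in JM833-T1 and 882 CPM in JM833-T2, with 72.3 to 163 CPM in the others. The list medians of 2.87 for muscle and 5.94 for adipocyte genes in the 9 tumors therefore describe those tumors, and the adipocyte median inside MaP R245W/- was -0.004. Of 15 milk and secretory genes, 11 were above 0 (median 2.71), and all but Muc15 overlapped. This median was 5.17 without JM1564 and 1.83 without JM1126, and the summed level was 3792 CPM in JM1564, inside the metaplastic range of 80.2 to 7210 CPM, and 66.3 CPM in JM1126. Csn2, the beta-casein gene, had 0 counts in JM1126, 7 in JM1564 and 2 in JM1233, and 111 to 8476 in the other 6 tumors.

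**Figure D3:**
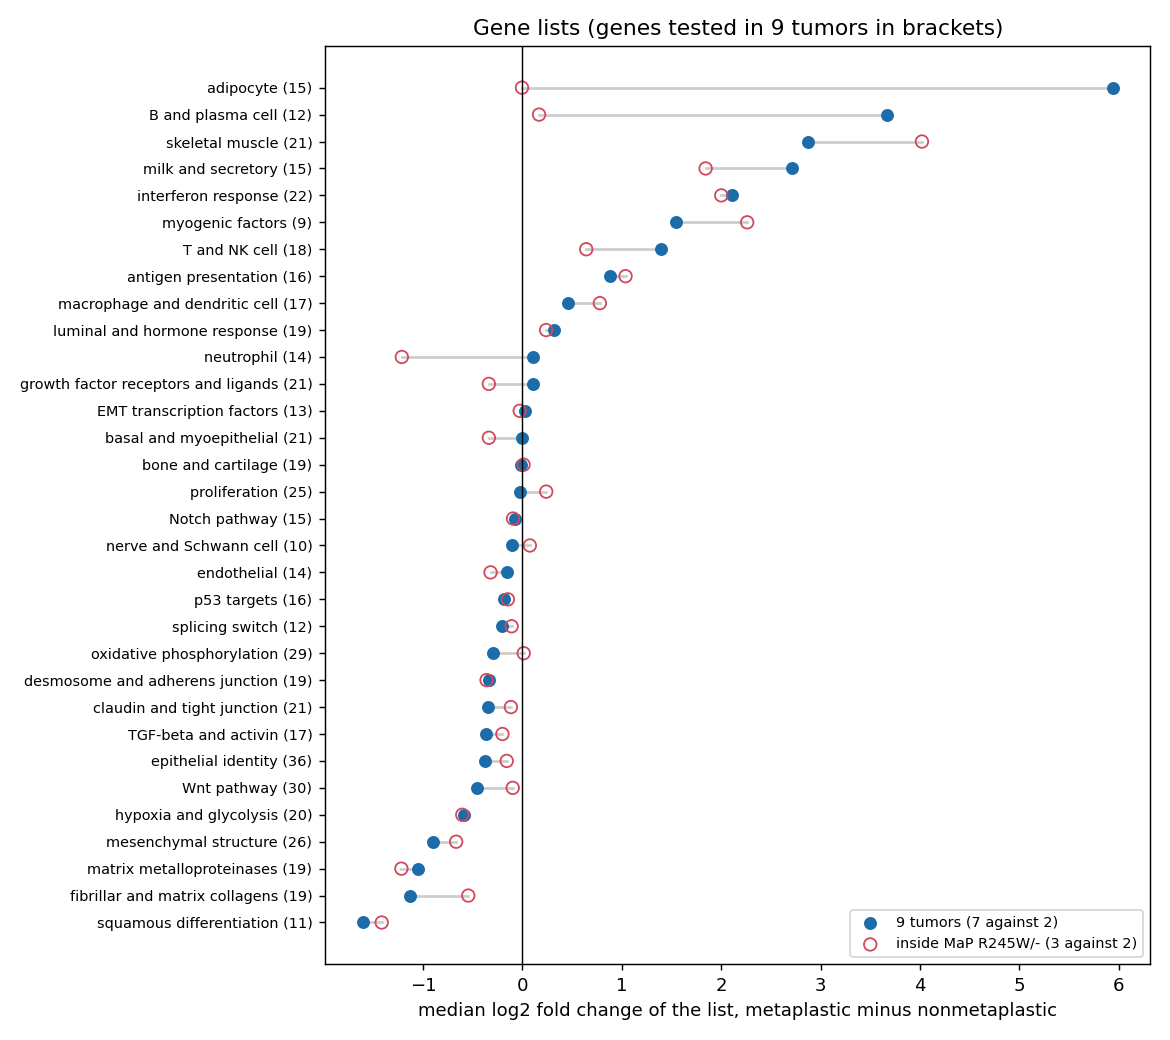
Median log2 fold change of each gene list, metaplastic minus nonmetaplastic, in the 9 tumors (filled) and inside MaP R245W/- (open), with the number of genes tested in brackets. Interferon response stands at 2.11 and 2.001, while the adipocyte list moves from 5.94 to near 0 once the JM833 tumors are not in the comparison.

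Among single genes higher in every metaplastic tumor, Tmod2, an actin-capping tropomodulin, was at 6.80 to 53.6 CPM (median 37.9 CPM) against 2.13 CPM in JM1564 and 4.77 CPM in JM1126, a log2 fold change of 3.41 (SE 0.77) in the 9 tumors and 3.48 (SE 0.54) inside MaP R245W/-. JM663-T2 was the low one, and the other 6 were at 30.01 CPM or more. On the scale shared with the nonmetaplastic MaP R172H/- tumors, those tumors held Tmod2 at 9.42 to 229 CPM, against 2.11 CPM in JM1564 and 4.73 CPM in JM1126. Cep112, a centrosomal protein, was at 5.98 to 15.3 CPM against 3.12 and 2.53 CPM, a log2 fold change of 1.84 (SE 0.42). Cnmd, a secreted protein of cartilage, had 8 to 175 counts in the metaplastic tumors against 1 and 2 counts, and Crym, which binds thyroid hormone, 26 to 93 counts against 14 and 3 counts. Trp63, which specifies basal epithelium, was at 51.8 CPM in JM1233, 28.3 CPM in JM833-T1 and 1.72 to 7.47 CPM in the other 5 metaplastic tumors, against 1.36 CPM in JM1564 and 1.04 CPM in JM1126. The basal and myoepithelial list did not follow Trp63, with 10 of 21 genes above 0 in the 9 tumors and 5 of 21 inside MaP R245W/-. This list summed to 812 to 2912 CPM in the metaplastic tumors, 1312 CPM in JM1564 and 14590 CPM in JM1126. Oxtr, the oxytocin receptor, had 7 to 1354 counts against 1 and 4 counts. Inside MaP R245W/- alone, Pfn2, an actin-binding profilin, was at 63.9, 45.7 and 53.1 CPM against 13.6 and 14.1 CPM, a log2 fold change of 1.98 (SE 0.33), while JM833-T2 of the MaP -/- tumors was at 10.9 CPM.

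Among single genes lower in every metaplastic tumor, Srd5a1, a steroid reductase that makes dihydrotestosterone, was at 4.02 to 12.2 CPM (median 7.24 CPM) against 32.8 CPM in JM1564 and 39.9 CPM in JM1126. The log2 fold change was -2.35 (SE 0.36, edgeR FDR 0.465) in the 9 tumors and -1.95 (SE 0.38) inside MaP R245W/-, and the nonmetaplastic pair were alike. Sema3d, a secreted guidance factor, was at 3.58 to 23.6 CPM (median 12.1 CPM) against 73.3 and 51.6 CPM, a log2 fold change of -2.31 (SE 0.47). Bcar3, an adaptor of integrin signaling, was at 32.3 to 67.2 CPM against 117 and 130 CPM, a log2 fold change of -1.33 (SE 0.28). Hk2, the hexokinase that opens glycolysis, was at 64.3 to 177 CPM against 608 CPM in JM1564 and 268 CPM in JM1126. On the scale shared with the nonmetaplastic MaP R172H/- tumors, those tumors held Srd5a1 at 8.42 to 16.1 CPM, against 32.5 CPM in JM1564 and 39.6 CPM in JM1126. They held Bcar3 at 10.03 to 74.9 CPM against 115 and 129 CPM, and Hk2 at 61.3 to 214 CPM against 602 and 266 CPM. In these genes JM1564 and JM1126 stood high, not every nonmetaplastic tumor of the series. Hk2 was the member without overlap among 20 hypoxia and glycolysis genes, against 0.635% of all genes tested that were lower without overlap. All 20 were below 0 in the 9 tumors, with a median of -0.59, while 52.0% of all genes tested were above 0. Inside MaP R245W/- 18 were below 0 and 2 above. The summed list overlapped, at 3049 to 8296 CPM in the metaplastic tumors against 9139 CPM in JM1564 and 7940 CPM in JM1126. Jag1, a Notch ligand, was at 39.01 to 123 CPM against 141 and 238 CPM.

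In other genes of this kind only JM1126 was far away. Il1a, an inflammatory cytokine, was at 1.91 to 4.14 CPM in the metaplastic tumors, 4.605 CPM in JM1564 and 85.9 CPM in JM1126. Ankrd49 and Med17, neighbours on chromosome 9, were at 207 and 288 CPM in JM1126 but at 43.5 and 70.1 CPM in JM1564, against highest metaplastic values of 37.1 and 57.3 CPM. Ibsp, a bone sialoprotein, had 620 counts in JM1126, 14 in JM1564 and 0 to 10 in the metaplastic tumors. Gabbr2, a GABA receptor subunit, was at 8.27 CPM in JM1126 and 2.84 CPM in JM1564, against 0.418 to 1.56 CPM. Inside MaP R245W/- alone, Samd5 was at 1.16, 1.11 and 0.761 CPM against 15.7 and 7.85 CPM, and Apod, a lipid carrier, at 17.0, 20.3 and 16.2 CPM against 56.2 and 54.4 CPM, while the JM833 tumors held 75.2 and 55.3 CPM of Apod.

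The genes without overlap were not spread evenly over the chromosomes. Chromosome 6 held 40 of the 156 lower genes, 2.69% of the 1486 genes tested there. Of the higher genes, chromosome 3 held 86 (6.38% of 1347 tested) and chromosome 1 held 77 (4.55% of 1691). Among the 101 protein-coding lower genes with a mean of at least 1 CPM, 31 were on chromosome 6, and among the 163 such higher genes 24 were on chromosome 3 and 9 on chromosome 6.

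**Figure D4:**
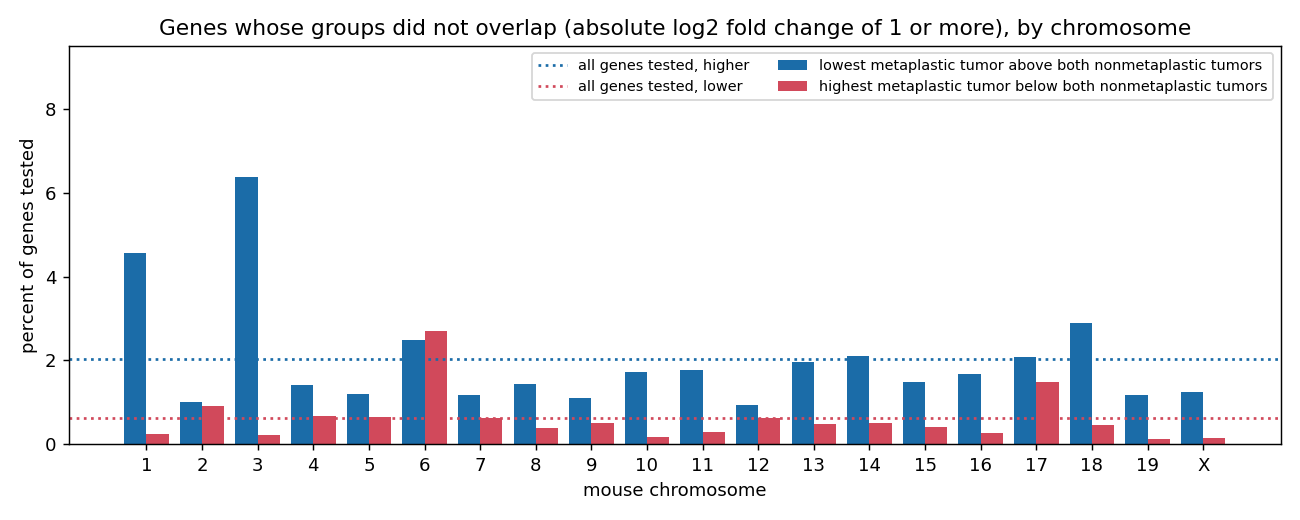
Percent of the genes tested on each chromosome whose groups did not overlap, with an absolute log2 fold change of at least 1, higher (blue) or lower (red) in the metaplastic tumors. Dotted lines give the same percent over all genes, 2.04% and 0.635%, and chromosomes 3 and 6 stand highest for the 2 directions.

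The stretch of chromosome 6 from 35 to 40 Mb (GRCm39) was chosen after its values were seen. It held 15 genes without overlap among 51 tested, all lower in the metaplastic tumors, against 0.635% of all genes tested. Over its 28 genes with a mean of at least 5 CPM, the median log2 level, relative to the metaplastic mean, was 0.70 in JM1564 and 1.33 in JM1126, and between -0.28 and 0.42 in the metaplastic tumors. Further along, at 80 to 85 Mb, JM1564 alone was high at 1.98, with JM1126 at -0.02. At 40 to 45 Mb JM1126 was at 1.26 and JM1564 at -0.42. JM1564 and JM1126 both lay above the metaplastic tumors at 35 to 40 Mb, and 1 of them alone did so at 80 to 85 Mb and at 40 to 45 Mb. Both also lay above them in stretches of other chromosomes. At 55 to 60 Mb of chromosome 17 they were at 0.75 and 0.28, against 0.22 at most.

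Trim24, a chromatin reader and cofactor of nuclear receptors, lies in this stretch from 37847644 to 37945380 and had the lowest FDR of the protein-coding genes. It was at 55.4 CPM in JM1233, 48.3 CPM in RM0014 and 71.8 CPM in JM1133, and at 60.8, 78.0, 69.0 and 54.9 CPM in JM663-T1, JM663-T2, JM833-T1 and JM833-T2. JM1564 held 182 CPM and JM1126 held 215 CPM, more than any metaplastic tumor. The log2 fold change was -1.67 (SE 0.22, edgeR FDR 0.147) in the 9 tumors and -1.76 (SE 0.31) inside MaP R245W/-. Gm33318, a noncoding RNA of the same stretch that lies beside Creb3l2, was at 0.896 to 2.28 CPM against 9.52 and 21.6 CPM. On the scale of all 18 tumors, Trim24 was at 48.3 to 157 CPM in the MaP R172H/- tumors, against 181 CPM in JM1564 and 214 CPM in JM1126, and at 109 CPM in JM836-T1 and 35.4 CPM in JM779-T1, the tumors left out.

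Its neighbours had the same order. Creb3l2, a transcription factor of the secretory pathway, was at 47.3 to 115 CPM against 236 and 141 CPM, a log2 fold change of -1.45 (SE 0.33). Mtpn, an ankyrin repeat protein, was at 182 to 315 CPM against 439 and 809 CPM, and Luc7l2, a splicing factor, at 220 to 518 CPM against 711 and 783 CPM. Mrps33, a mitochondrial ribosomal protein, was at 7.90 to 16.1 CPM against 27.8 and 35.6 CPM. Met, the hepatocyte growth factor receptor on the same chromosome, did not follow, at 738 to 15832 CPM in the metaplastic tumors, 4897 CPM in JM1564 and 530 CPM in JM1126.

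**Figure D5:**
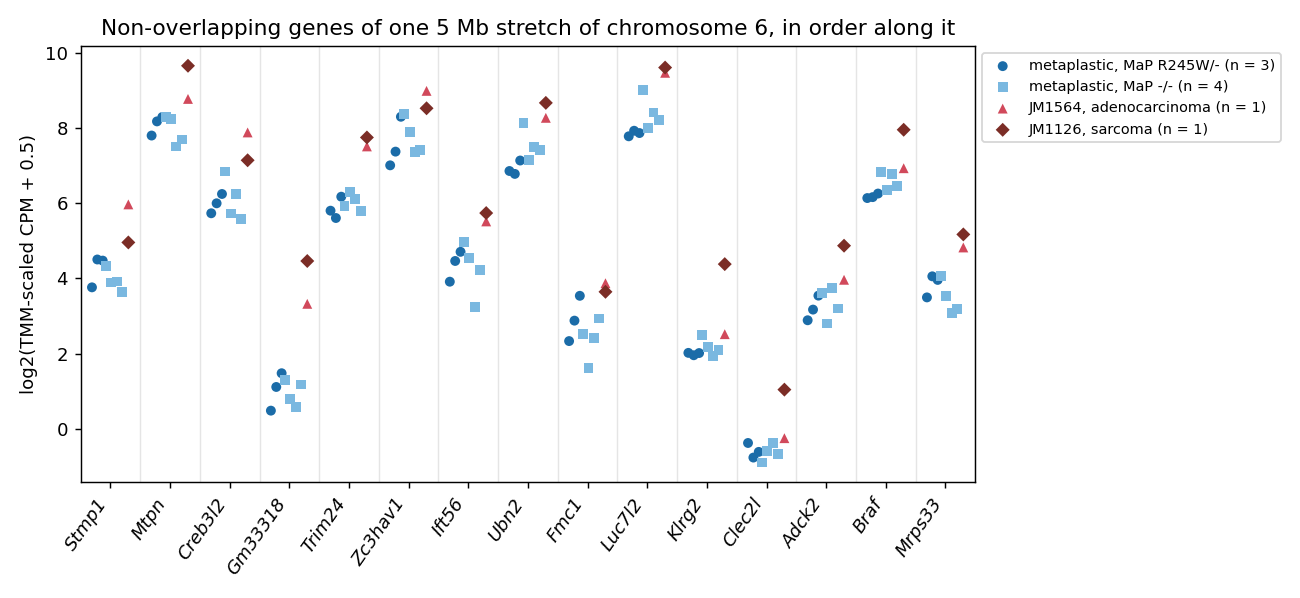
Level of the 15 genes of one 5 Mb stretch of chromosome 6 whose groups did not overlap, in order along it, as log2(CPM + 0.5), with 1 point per tumor. In each gene both JM1564 and JM1126 lie above the 7 metaplastic tumors, for Trim24 at 182 and 215 CPM against 78.0 CPM at most.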

How the data were processed

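Total RNA of frozen tumor portions was depleted of ribosomal RNA and read as stranded libraries on a NovaSeq instrument. The authors aligned reads with STAR 2.7.10b, estimated counts with RSEM 1.3.3 and checked reads with FastQC 0.11.9, on GRCm39, and deposited 1 table of gene counts for all 18 tumors. Its 57126 genes were matched to GENCODE M39, and the 506 without a match held at most 0.0464% of the counts of a tumor.

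Groups followed the histology in the study's table of tumors, since the sample labels give none. Counts of 9 tumors, and of the 5 MaP R245W/- tumors, were fitted with edgeR 4.0.16 (R 4.3.3) after filterByExpr and TMM scaling, with quasi-likelihood tests and Benjamini-Hochberg adjusted p (FDR). Calls needed an FDR under 0.05 together with a log2 fold change of 1 or more in size. The script was tested on simulated data. DESeq2 1.42.0 (without filterByExpr), other filters and thresholds, summed counts per mouse, genotype as a covariate and leaving out each tumor were alternatives. Samples are tumors, and tumors of 1 mouse are not separate animals.

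Named genes were the 10 highest and 10 lowest among protein-coding genes without overlap and with a mean of at least 1 CPM (5 and 5 inside MaP R245W/-), filled by smallest p where none was called, up to 2 genes per list, and 25 genes listed always. The members and gene lists were chosen with earlier results of these data known. Promoters came from RefSeq on GRCm38.p6, a build other than that of the counts, and were matched by gene symbol. Figures used matplotlib 3.10.9. The depth of 24736337 to 37365062 counts per tumor limits genes with few counts. Results for some items are not reported here.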

Additional observations from a re-analysis of the deposited data

Results flagged for a closer look

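Within the 7 metaplastic tumors, 67 values were checked for a tumor far from the others by Dixon's criterion (critical value 0.568), and 5 passed it. Chance alone flags about 1 in 20 groups.

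The summed level of the matrix metalloproteinases list was 10077 CPM in JM663-T2, against 872 to 1271 CPM in the other 6 metaplastic tumors. The milk and secretory list summed to 80.2 CPM in JM1233, against 1759 to 7210 CPM in the others. The B and plasma cell list was also lowest in JM1233, at 360 CPM against 967 to 2028 CPM, only just past the critical value. Tmod2 was at 6.80 CPM in JM663-T2 and at 30.01 to 53.6 CPM in the others, and Samd5 was at 13.3 CPM in JM833-T1 and at 0.761 to 2.61 CPM in the others.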

How the results depend on the processing

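No log2 fold change of a gene printed here changed sign under the alternatives run for it, but medians of 4 lists did when 1 tumor was left out. In the 9 tumors the claudin and tight junction median became 0.16 and the epithelial median 0.48 without JM1564, and the collagen median became 0.78 and the mesenchymal median 1.09 without JM1126. With the DESeq2 Wald test, 101 genes were called higher and 113 lower in the 9 tumors, and 34 and 47 inside MaP R245W/-. Leaving out 1 tumor, edgeR called 0 to 2 genes higher and 0 to 87 lower in the 9 tumors, the highest counts being without JM1564, while without JM1126 it called 2 lower; a lone nonmetaplastic tumor was assumed to vary like the metaplastic ones. Inside MaP R245W/- it called 0.

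Genes without overlap depended on the settings. In the 9 tumors the 502 higher genes became 260 with at least 10 counts in every tumor, 213 above a log2 fold change of 2 and 213 among protein-coding genes. The 156 lower genes became 344 with DESeq2, 339 with no filter, 99 with at least 10 counts, 559 with no fold threshold, 39 above 2, 102 among protein-coding genes and 241 with sarcomatoid carcinomas only. Inside MaP R245W/- the 608 higher genes became, in the same order, 1191, 1195, 336, 1603, 179 and 319, and the 376 lower genes 1446, 1411, 221, 1382, 105 and 243. Leaving out 1 tumor gave 480 to 3246 higher and 158 to 2143 lower genes in the 9 tumors, and 811 to 3326 and 555 to 3151 inside MaP R245W/-, the highest counts being without JM1564 or JM1126. Fewer tumors make overlap less likely by construction, and fold thresholds change the counts by definition. The DESeq2 fit, like the setting with no filter, was run without filterByExpr. The cause of the other changes was not tested.

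All 22 interferon genes stayed above 0 in the 9 tumors whichever tumor was left out, with medians of 1.72 to 2.704. No paired analysis was possible because no mouse gave both a metaplastic and a nonmetaplastic tumor, and the replicate numbers, given in accession order, only name tumors.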

Other observations

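Gt(ROSA)26Sor, the noncoding RNA of the Rosa26 locus, was at 1.69 CPM in JM1126 and at 15.7 to 33.2 CPM in the 7 metaplastic tumors, with 17.1 CPM in JM1564. The study's table of tumors gives JM1126 no Rosa26 reporter, while JM1564, JM1233 and RM0014 carry one. JM1133 and the MaP -/- tumors, without a reporter, held this RNA at 19.96 to 32.2 CPM.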
